A study of Mus musculus with 8 samples.

Results

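Growth factor receptors and ligands outside the EGF receptor family were followed as 10 genes in ASZ001, a cell line from mouse basal cell carcinoma. They are the receptor genes Fgfr1, Fgfr2, Fgfr3, Met, Igf1r, Insr and Axl and the ligand genes Pdgfa, Pdgfb and Vegfc. The genes were taken by symbol from the deposited table, in which all 10 were found among 24907 symbols, and all 10 were among the 12538 genes that passed the filter on low counts. Messenger RNA was sequenced in 8 libraries, 2 in each of 4 groups. The TGFbR1kd RasV12 group carried an shRNA that targets the TGF-beta receptor gene Tgfbr1 and was given Dox and 4OHT. The NS RasV12 group carried a non-silencing shRNA and was given Dox and 4OHT. The TGFbR1kd DMSO and NS DMSO groups carried the same shRNAs and were given DMSO, the solvent. Dox usually stands for doxycycline and 4OHT for 4-hydroxytamoxifen, and RasV12 is an activated form of Ras. No group had Dox and 4OHT without the RasV12 label, so the effects of the drugs and of Ras cannot be told apart. "Ras response", "with Ras" and similar wording mean only the difference between Dox-4OHT and DMSO libraries. All groups are of 1 line, ASZ001. Not given in the sources used here are the promoter that drives RasV12, the number of shRNA sequences or clones, and whether replicate libraries are from separate cultures. The p-values therefore measure only the spread between these libraries, which may be technical.

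Receptor tyrosine kinases are membrane proteins that are activated by an extracellular ligand. They then phosphorylate each other and recruit adaptors that switch on Ras and phosphoinositide 3-kinase. Epithelial cells usually make FGF receptors, Met, Axl and the insulin and IGF1 receptors, and often meet the matching ligands from neighbouring stroma. PDGF and VEGF-C ligands made by epithelium mostly act the other way, on stromal cells and on lymphatic endothelium.

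Library totals ranged from 12724604.5 to 16233379 counts, and the ribosomal RNA gene Rn45s took between 0.388% and 2.76% of them. Tgfbr1, the targeted gene, had 8.86 and 9.38 CPM (counts scaled to a common library size with TMM factors) in the TGFbR1kd RasV12 libraries, against 104 and 91.6 CPM in the NS RasV12 libraries. Under DMSO it had 10.2 and 8.08 CPM in TGFbR1kd libraries, against 77.1 and 80.4 CPM in NS libraries. The 7 keratinocyte markers were present in every group, while their summed level was 12481 and 12007 CPM in TGFbR1kd RasV12, 12473 and 12698 CPM in NS RasV12, 16643 and 15901 CPM in TGFbR1kd DMSO and 25302 and 24970 CPM in NS DMSO libraries. Krt5 and Krt14 carried most of that sum. Itgb4 was lower too, with a mean of 1439 CPM in TGFbR1kd RasV12 against 1980 CPM in NS DMSO. Epcam, Trp63, Itga6 and Cdh1 ran the other way between these groups, such as Epcam with 341 against 177 CPM and Trp63 with 449 against 372 CPM. Of 8 fibroblast markers 2 passed the count filter, and their summed level lay between 1.14 and 4.39 CPM. The 8 endothelial markers summed to between 102 and 207 CPM, nearly all from Flt1 and Pecam1, with Kdr, Tie1 and Emcn listed at or near 0. The 6 immune markers summed to between 5.65 and 18.0 CPM, mostly from Cd68, with Ptprc, Cd3e, Cd79a and Itgam at or near 0. The 6 pigment cell markers summed to between 32.5 and 57.7 CPM, mostly from Mitf, with Tyr, Dct, Mlana and Kit at or near 0. The part of these markers in the changes described here was not tested, and in bulk RNA fewer cells of a kind and less RNA per cell cannot be told apart.

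Together the 10 genes took between 0.157% and 0.175% of all counts in every library. On the scale of CPM per kilobase of the deposited gene length, Pdgfa had the highest level and Met the second highest in every group, and Insr and Vegfc had the lowest levels. Pdgfa averaged 172 CPM per kilobase in TGFbR1kd RasV12, 128 in NS RasV12, 142 in TGFbR1kd DMSO and 98.6 in NS DMSO libraries. Vegfc, the lymphangiogenic ligand, averaged 3.35, 3.84, 1.76 and 2.46 CPM per kilobase in the same order of groups. The middle of the order differed between groups. Axl had rank 3 and Fgfr1 rank 4 in both RasV12 groups, Axl rank 3 and Fgfr2 rank 4 in TGFbR1kd DMSO, and Fgfr2 rank 3 and Axl rank 4 in NS DMSO. Fgfr3 had rank 6 in TGFbR1kd RasV12 and rank 5 in TGFbR1kd DMSO, against rank 8 in both NS groups. Neighbours in the order whose libraries overlapped were Pdgfb and Igf1r in NS RasV12 and, in TGFbR1kd DMSO, Fgfr3 and Fgfr1 as well as Pdgfb and Igf1r. All other neighbours had libraries that did not overlap.

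**Figure D1:**
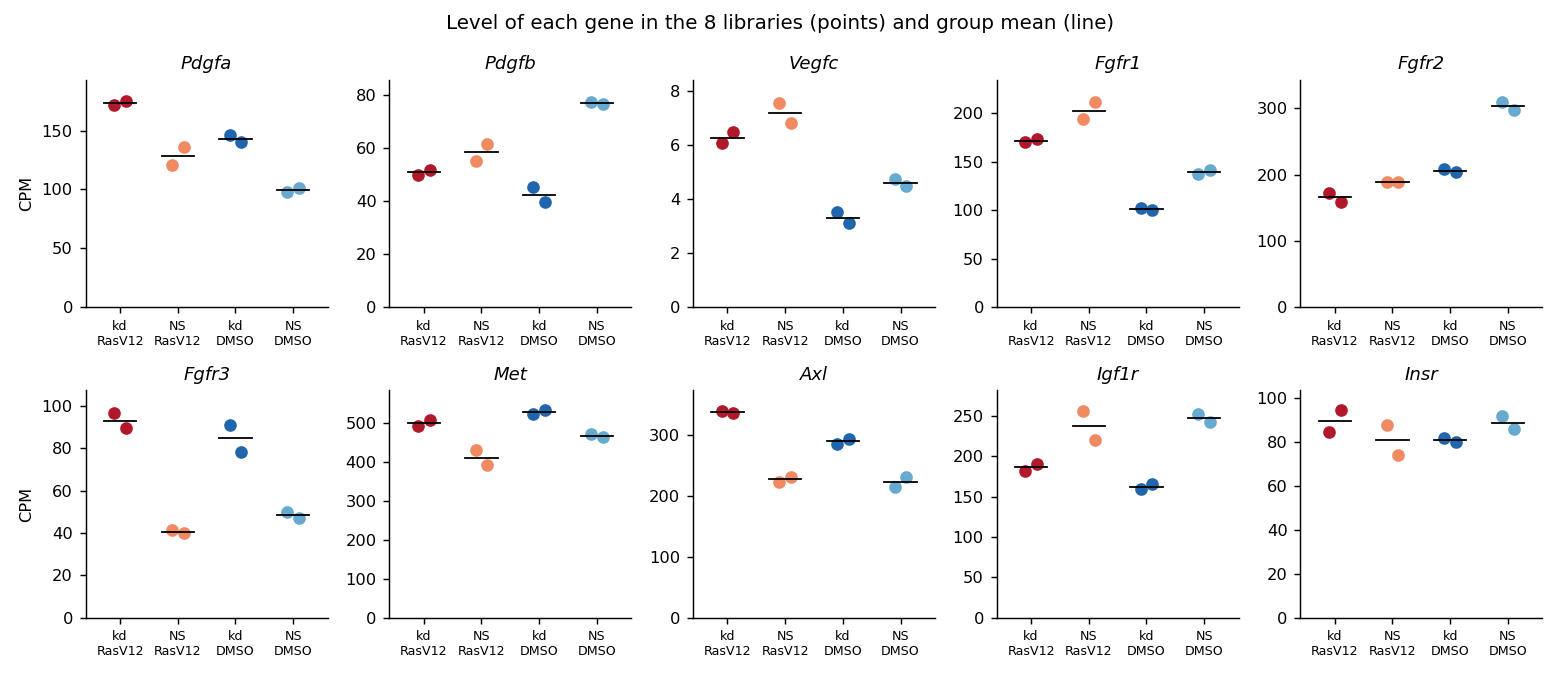
Level of each of the 10 genes in CPM (vertical axes, each from 0) in the 8 libraries, shown as points with a line at the group mean, for knockdown (kd) and NS cells under RasV12 and DMSO. Fgfr3 and Axl stand higher in both knockdown groups, Fgfr1 and Vegfc stand higher in both RasV12 groups, and Fgfr2 is highest in NS DMSO at 310.4 and 298 CPM.

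With knockdown of Tgfbr1, Fgfr3, Met, Pdgfa and Axl were higher in TGFbR1kd than in NS libraries under both treatments, and Fgfr1, Fgfr2, Igf1r and Pdgfb were lower under both, while Vegfc passed the test under DMSO alone and Insr under neither. Under Dox-4OHT 8 of the 10 genes passed the edgeR quasi-likelihood test at an adjusted p of 0.05, 4 higher and 4 lower, against 60.2% of all genes tested. Under DMSO 9 of 10 passed, 4 higher and 5 lower, against 61.9% of all genes tested. The shares of all tested genes that were higher and lower were 30.5% and 29.7% under Dox-4OHT and 30.9% and 31% under DMSO. The median change of the 10 genes was -0.02 on the log2 scale under Dox-4OHT and -0.30 under DMSO, against -0.01 and 0.00 for all genes tested. The libraries of the groups did not overlap for 9 of the 10 genes under Dox-4OHT, against 78.7% of all genes tested, and for all 10 under DMSO, against 81.2%. Fgfr3 under Dox-4OHT was the only 1 of the 10 to change by at least 2-fold in either comparison, where 10.3% of all genes did so under Dox-4OHT and 10.7% under DMSO.

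With Ras, the FGF receptors Fgfr1 and Fgfr2 moved in opposite directions and the ligands Pdgfa and Vegfc moved with Fgfr1. Fgfr1, Pdgfa and Vegfc rose and Fgfr2 fell in both kinds of cell. In TGFbR1kd cells 7 of the 10 passed the test, 6 higher (Igf1r, Pdgfb and Axl besides the 3 named) and 1 lower, against 36.1% of all genes tested, of which 19.5% were higher and 16.6% lower. In NS cells 7 of the 10 passed, 3 higher and 4 lower (Fgfr3, Met and Pdgfb besides Fgfr2), against 42.1% of all genes tested, of which 20.8% were higher and 21.3% lower. The median Ras response of the 10 genes was 0.21 on the log2 scale in TGFbR1kd cells and -0.10 in NS cells, against 0.00 for all genes tested in each. The RasV12 and DMSO libraries did not overlap for 9 of the 10 genes in TGFbR1kd cells, against 67.1% of all genes tested, and for 7 of 10 in NS cells, against 70.2%. None of the 10 responded to Ras by 2-fold or more, where 2.67% of all genes did so in TGFbR1kd cells and 4.24% in NS cells. The Ras comparisons and the knockdown comparisons share their groups, so their results are not independent of each other.

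**Figure D2:**
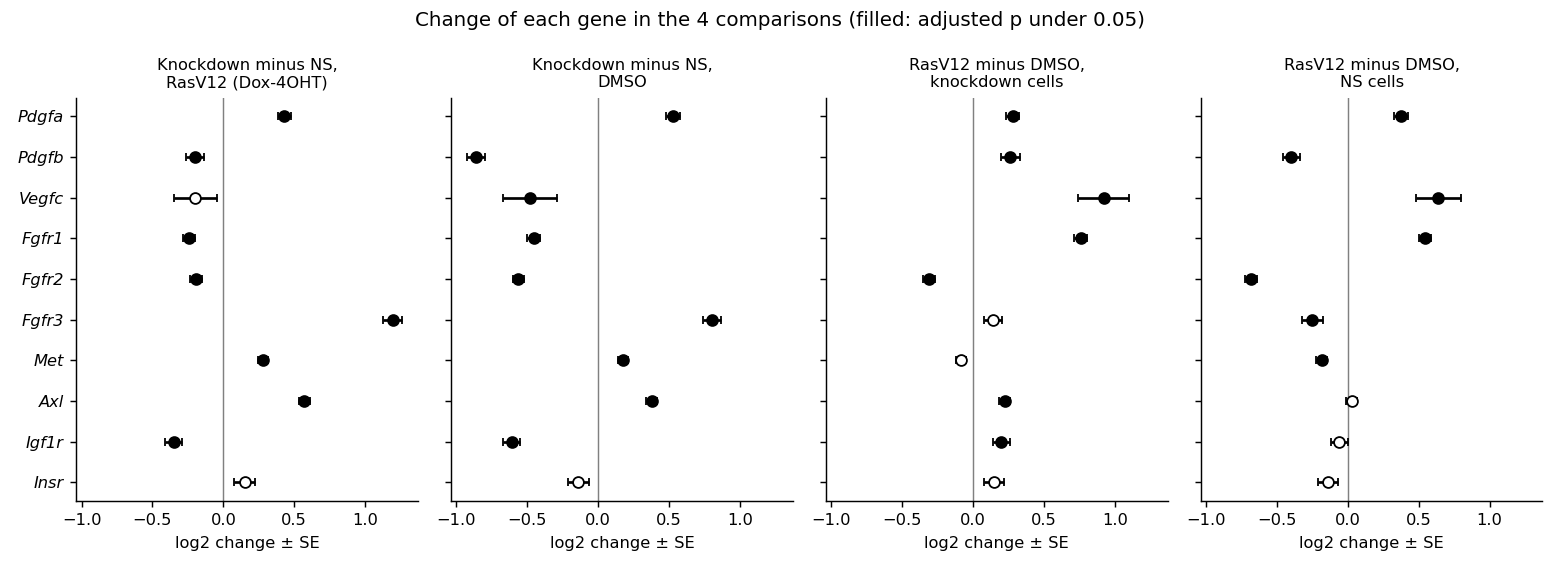
Change of each gene on the log2 scale (horizontal axes, with SE bars) for knockdown minus NS under RasV12 and under DMSO, and for RasV12 minus DMSO in knockdown and in NS cells. Filled points passed an adjusted p of 0.05, and Fgfr3 shows the largest change, 1.20 on this scale for knockdown minus NS under RasV12.

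The 3 FGF receptors each followed a different course. These receptors bind FGFs together with heparan sulphate, and their splice forms decide which FGFs they bind, but counts per gene do not separate the epithelial from the mesenchymal forms. Fgfr3 had 96.4 and 89.4 CPM in TGFbR1kd RasV12, 41.5 and 39.8 CPM in NS RasV12, 90.7 and 78.4 CPM in TGFbR1kd DMSO and 49.6 and 46.9 CPM in NS DMSO libraries. Every knockdown library stood above every NS library. The log2 change of Fgfr3 with knockdown was 1.20 ± 0.07 (SE) under Dox-4OHT, a 2.29-fold rise (adjusted p = 2.74e-13), and 0.80 ± 0.07 under DMSO (adjusted p = 1.99e-10). Its Ras response was 0.14 ± 0.06 in TGFbR1kd cells, which did not pass (adjusted p = 0.0716), and -0.25 ± 0.07 in NS cells (adjusted p = 0.0086). The call in NS cells was lost without the second NS RasV12 library (adjusted p = 0.0754) or without the first NS DMSO library (adjusted p = 0.0965). The response in TGFbR1kd cells passed without the first TGFbR1kd DMSO library, at a log2 change of 0.24 (adjusted p = 0.00631), and was 0.04 without the second (adjusted p = 0.734).

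Fgfr2, the FGF receptor typical of epidermis, had 173 and 159 CPM in TGFbR1kd RasV12, 189 and 189.5 CPM in NS RasV12, 208 and 204 CPM in TGFbR1kd DMSO and 310.4 and 298 CPM in NS DMSO libraries. The NS DMSO libraries stood apart above the other groups, and no groups overlapped. Fgfr2 fell with Ras in TGFbR1kd cells by 0.31 ± 0.04 on the log2 scale (adjusted p = 1.05e-06) and in NS cells by 0.68 ± 0.04 (adjusted p = 1.09e-13). With knockdown it fell by 0.19 ± 0.04 under Dox-4OHT (adjusted p = 0.000302) and by 0.56 ± 0.04 under DMSO (adjusted p = 1.67e-12).

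Fgfr1, the FGF receptor typical of mesenchyme, had 170.0 and 174 CPM in TGFbR1kd RasV12, 194 and 212 CPM in NS RasV12, 103 and 101 CPM in TGFbR1kd DMSO and 137 and 141 CPM in NS DMSO libraries. Both RasV12 groups lay above both DMSO groups, and within each treatment the knockdown libraries lay below the NS libraries. With Ras the change was 0.76 ± 0.05 on the log2 scale in TGFbR1kd cells (adjusted p = 3.74e-13) and 0.55 ± 0.04 in NS cells (adjusted p = 4.33e-11). With knockdown it fell by 0.24 ± 0.04 under Dox-4OHT (adjusted p = 2.08e-05) and by 0.45 ± 0.05 under DMSO (adjusted p = 2.26e-09).

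Within a library, the balance of the 3 receptors was given by ratios of counts per length. Fgfr1 over Fgfr2 was 1.02 and 1.13 in TGFbR1kd RasV12, 1.06 and 1.16 in NS RasV12, 0.510 and 0.510 in TGFbR1kd DMSO and 0.456 and 0.490 in NS DMSO libraries. The ratio was near 1 in all RasV12 libraries and near 0.5 in all DMSO libraries. Fgfr3 over Fgfr2 was 0.721 and 0.730 in TGFbR1kd RasV12, 0.283 and 0.271 in NS RasV12, 0.565 and 0.497 in TGFbR1kd DMSO and 0.207 and 0.203 in NS DMSO libraries. Here the knockdown libraries stood apart from the NS libraries under both treatments. An exact permutation test (two-sided) of 2 against 2 libraries has 6 arrangements and cannot give a p below 0.333, and the ratios carry no other test.

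**Figure D3:**
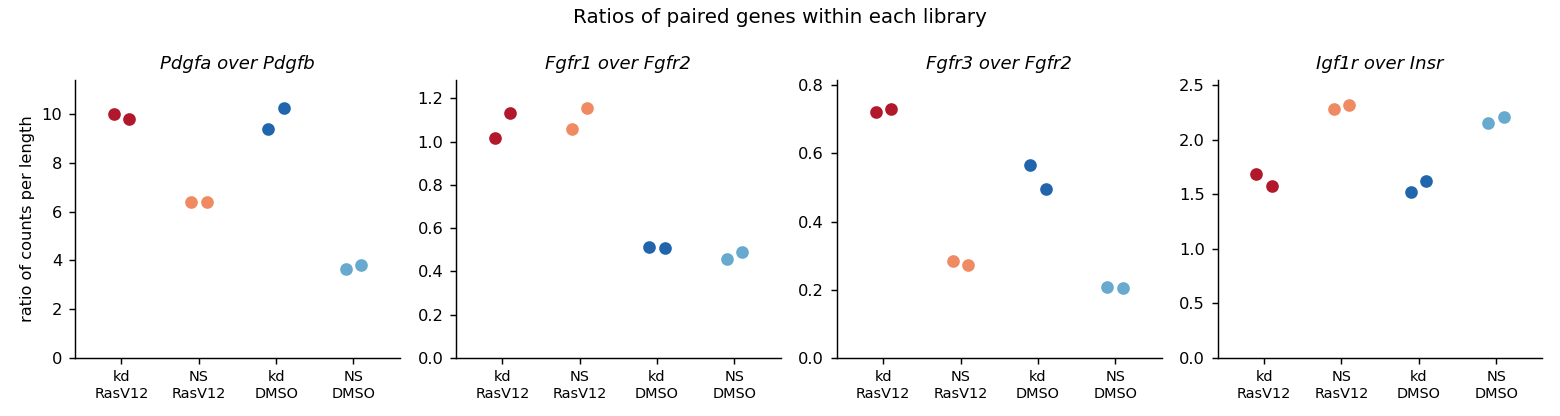
Ratio of counts per length of paired genes (vertical axes from 0) in each of the 8 libraries, shown as points. Fgfr1 over Fgfr2 separates RasV12 from DMSO libraries, while Fgfr3 over Fgfr2 and Pdgfa over Pdgfb are higher in knockdown than in NS libraries under both treatments.

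Met, the receptor of hepatocyte growth factor, had 491 and 506 CPM in TGFbR1kd RasV12, 429 and 393 CPM in NS RasV12, 524 and 533 CPM in TGFbR1kd DMSO and 472 and 463 CPM in NS DMSO libraries. Every knockdown library stood above every NS library. The size of the change with knockdown was small, at 0.28 ± 0.04 on the log2 scale under Dox-4OHT (adjusted p = 3.54e-07) and 0.18 ± 0.04 under DMSO (adjusted p = 0.000182). The Ras response of Met was -0.08 ± 0.04 in TGFbR1kd cells (adjusted p = 0.0789) and -0.19 ± 0.04 in NS cells (adjusted p = 0.000207). Without the second NS RasV12 library the response in NS cells was -0.12 (adjusted p = 0.0192). The response in TGFbR1kd cells passed without the first NS RasV12 library (adjusted p = 0.0308) or without the second (adjusted p = 0.0317), with no filter on low counts (adjusted p = 0.0482) and when the fit held only the 4 libraries compared (adjusted p = 0.045).

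Axl, a TAM receptor activated by Gas6 and often studied in invasive carcinoma cells, had 339 and 335 CPM in TGFbR1kd RasV12, 222 and 231 CPM in NS RasV12, 285 and 293 CPM in TGFbR1kd DMSO and 214 and 231 CPM in NS DMSO libraries. The NS groups overlapped, and the TGFbR1kd RasV12 libraries were the highest. With knockdown Axl rose by 0.57 ± 0.04 on the log2 scale under Dox-4OHT (adjusted p = 6.76e-13) and by 0.38 ± 0.04 under DMSO (adjusted p = 2.87e-09). With Ras it rose by 0.22 ± 0.04 in TGFbR1kd cells (adjusted p = 3.73e-05), and its change in NS cells was 0.03 ± 0.04 (adjusted p = 0.624).

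Igf1r, the receptor of the insulin-like growth factors, had 182 and 191 CPM in TGFbR1kd RasV12, 256 and 219.8 CPM in NS RasV12, 159 and 165 CPM in TGFbR1kd DMSO and 253 and 243 CPM in NS DMSO libraries. All knockdown libraries lay below all NS libraries, and the 2 NS groups overlapped. Igf1r fell with knockdown by 0.35 ± 0.06 on the log2 scale under Dox-4OHT (adjusted p = 0.000286) and by 0.61 ± 0.06 under DMSO (adjusted p = 2.28e-06). Its Ras response was 0.20 ± 0.06 in TGFbR1kd cells (adjusted p = 0.0245) and -0.06 ± 0.06 in NS cells (adjusted p = 0.453). The response in TGFbR1kd cells was lost without the second TGFbR1kd RasV12 library (adjusted p = 0.121) or without either TGFbR1kd DMSO library (adjusted p = 0.19 without the first and 0.0865 without the second). The response in NS cells was -0.17 without the first NS RasV12 library (adjusted p = 0.00627) and turned to 0.05 without the second (adjusted p = 0.473).

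Insr, the insulin receptor, had 84.8 and 94.9 CPM in TGFbR1kd RasV12, 87.6 and 74.1 CPM in NS RasV12, 81.8 and 79.9 CPM in TGFbR1kd DMSO and 91.8 and 86.0 CPM in NS DMSO libraries. These were the closest 4 groups among the 10 genes, with a spread of 0.15 on the log2 scale between the highest and lowest group mean. None of its 4 changes passed the test. With knockdown it changed by 0.15 ± 0.07 under Dox-4OHT (adjusted p = 0.0944) and -0.14 ± 0.07 under DMSO (adjusted p = 0.112). Its Ras response was 0.15 ± 0.07 in TGFbR1kd cells (adjusted p = 0.136) and -0.14 ± 0.07 in NS cells (adjusted p = 0.142). Among the alternatives, edgeR with no filter on low counts brought all 4 past the threshold. The changes with knockdown were then 0.15 under Dox-4OHT (adjusted p = 0.00831) and -0.13 under DMSO (adjusted p = 0.0319). The Ras responses were 0.14 in TGFbR1kd cells (adjusted p = 0.024) and -0.14 in NS cells (adjusted p = 0.0281). Without the first NS RasV12 library the 4 changes were 0.27, -0.13, 0.14 and -0.26 in the same order. Without the second NS RasV12 library the change with knockdown under Dox-4OHT was 0.04 and the Ras response in NS cells -0.02. Igf1r over Insr, as a ratio of counts per length, was 1.68 and 1.57 in TGFbR1kd RasV12, 2.29 and 2.32 in NS RasV12, 1.53 and 1.62 in TGFbR1kd DMSO and 2.16 and 2.21 in NS DMSO libraries, lower in every knockdown library than in every NS library.

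The PDGF chains moved apart with knockdown. Both bind PDGF receptors on stromal cells, and the A and B chains form dimers with different receptor preference. Pdgfa had 172 and 175 CPM in TGFbR1kd RasV12, 121 and 136 CPM in NS RasV12, 146 and 139.98 CPM in TGFbR1kd DMSO and 97.8 and 101 CPM in NS DMSO libraries. It was highest with both knockdown and Ras and lowest with neither. Pdgfa rose with knockdown by 0.43 ± 0.05 on the log2 scale under Dox-4OHT (adjusted p = 1.06e-08) and by 0.53 ± 0.05 under DMSO (adjusted p = 5.13e-10). With Ras it rose by 0.28 ± 0.05 in TGFbR1kd cells (adjusted p = 2.77e-05) and by 0.37 ± 0.05 in NS cells (adjusted p = 6.91e-07).

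Pdgfb had 50.03 and 52.0 CPM in TGFbR1kd RasV12, 55.3 and 61.7 CPM in NS RasV12, 45.2 and 39.8 CPM in TGFbR1kd DMSO and 77.7 and 76.7 CPM in NS DMSO libraries. No groups overlapped, and the NS DMSO libraries were the highest. It was the only 1 of the 10 to pass the test in opposite directions with Ras, at 0.26 ± 0.07 in TGFbR1kd cells (adjusted p = 0.00332) and -0.40 ± 0.06 in NS cells (adjusted p = 5.74e-06). Leaving out the second TGFbR1kd DMSO library ended the call in TGFbR1kd cells, at 0.17 (adjusted p = 0.122). With knockdown Pdgfb fell by 0.20 ± 0.07 under Dox-4OHT (adjusted p = 0.0101) and by 0.86 ± 0.06 under DMSO (adjusted p = 4.71e-12). The call under Dox-4OHT was lost with DESeq2 (adjusted p = 0.0939), without the first TGFbR1kd RasV12 library (adjusted p = 0.0931) and without the second NS RasV12 library, at -0.11 (adjusted p = 0.225). Pdgfa over Pdgfb, per length, was 10.005 and 9.81 in TGFbR1kd RasV12, 6.38 and 6.42 in NS RasV12, 9.40 and 10.3 in TGFbR1kd DMSO and 3.67 and 3.83 in NS DMSO libraries. The ratio of the knockdown groups overlapped, and both NS groups lay below them.

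Vegfc was the scarcest of the 10, with between 44 and 98 counts a library, so its errors were the widest. It had 6.06 and 6.49 CPM in TGFbR1kd RasV12, 7.57 and 6.81 CPM in NS RasV12, 3.51 and 3.09 CPM in TGFbR1kd DMSO and 4.73 and 4.48 CPM in NS DMSO libraries. The RasV12 libraries lay above the DMSO libraries in both kinds of cell. Its Ras response was 0.92 ± 0.18 on the log2 scale in TGFbR1kd cells (adjusted p = 0.000187) and 0.64 ± 0.16 in NS cells (adjusted p = 0.00207), where DESeq2 gave an adjusted p of 0.0543. With knockdown it changed by -0.20 ± 0.15 under Dox-4OHT (adjusted p = 0.271) and fell by 0.48 ± 0.19 under DMSO (adjusted p = 0.0293). That call under DMSO was lost with DESeq2 (adjusted p = 0.158), without the second TGFbR1kd DMSO library (adjusted p = 0.174) and without the first (adjusted p = 0.136) or the second (adjusted p = 0.0602) NS DMSO library.

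The Ras responses of the 2 kinds of cell were compared directly by the interaction, the response in TGFbR1kd cells minus that in NS cells. Of the 10 genes 7 passed, all in the direction of a higher response in TGFbR1kd cells, against 38.2% of all genes tested, of which 20.2% were higher and 18% lower. None of the 10 interactions reached 2-fold, where 4.28% of all genes did so. The median interaction of the 10 genes was 0.27 on the log2 scale, against 0.02 for all genes tested. For Pdgfb it was 0.66 ± 0.09 (adjusted p = 1.94e-06), for Fgfr3 0.39 ± 0.10 (adjusted p = 0.00221) and for Fgfr2 0.37 ± 0.06 (adjusted p = 9.9e-06). For Axl it was 0.20 ± 0.05 (adjusted p = 0.00558), lost without the second NS DMSO library (adjusted p = 0.0917). Fgfr1 had an interaction of 0.21 ± 0.06 (adjusted p = 0.0084), which was lost with DESeq2 (adjusted p = 0.0646), without the second NS DMSO library (adjusted p = 0.0514) and without the first NS RasV12 library, at 0.14 (adjusted p = 0.0815). Igf1r had 0.26 ± 0.09 (adjusted p = 0.0306) and Insr 0.29 ± 0.10 (adjusted p = 0.0406), and each call was lost in 5 of the 8 fits that left out a library. Without the second NS RasV12 library they were 0.15 (adjusted p = 0.0615) and 0.17 (adjusted p = 0.147). The interaction of Met was 0.10 ± 0.05 (adjusted p = 0.13), that of Pdgfa -0.09 ± 0.07 (adjusted p = 0.288) and that of Vegfc 0.28 ± 0.24 (adjusted p = 0.386). Without the first NS RasV12 library the interactions of Met (0.16, adjusted p = 0.0183) and Pdgfa (-0.19, adjusted p = 0.028) passed, and without the second they were 0.03 (adjusted p = 0.655) and -0.01 (adjusted p = 0.896).

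**Figure D4:**
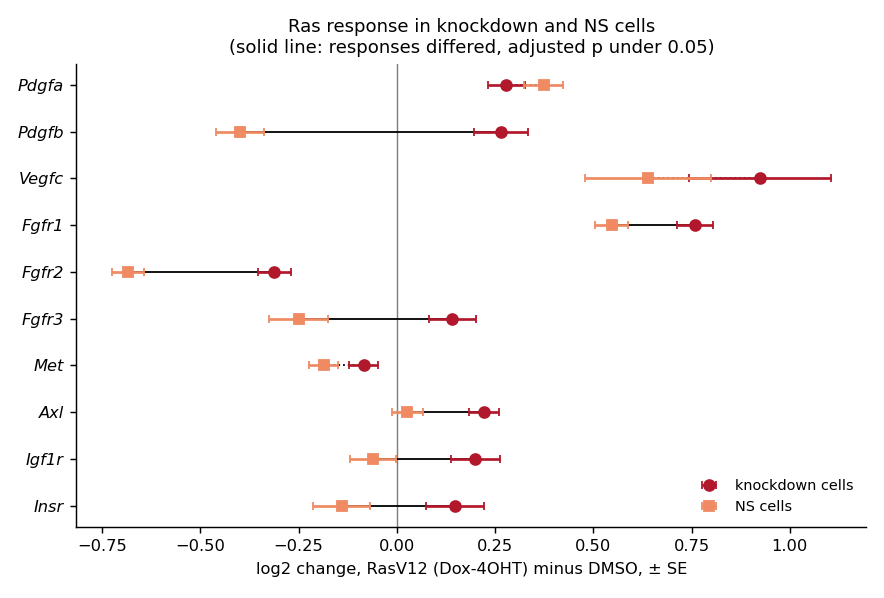
Log2 change with RasV12 (horizontal axis, with SE bars) of each gene in knockdown cells (circles) and NS cells (squares), joined by a line that is solid where the responses differed at an adjusted p of 0.05. Pdgfb lies on opposite sides of 0, at 0.26 and -0.40, and the circle lies to the right of the square for every gene but Pdgfa.

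Promoter sequences are shown for Fgfr3, Met, Pdgfa and Axl, the 4 genes that were higher in knockdown libraries under both treatments. Each runs over the 250 bases before an annotated transcription start, 5′ to 3′ on the strand of the gene, from RefSeq on GRCm38.p6, which is not the build of the counts. Windows were at hand for 7 of the 10 genes, and Fgfr3 and Pdgfa have a pair of starts each. Capitals mark matches, on either strand, to the AP-1 motif TGANTCA, the ETS motifs ACCGGAAG and AGGAAG, the SMAD motifs GTCTAGAC and CAGACA and the TEAD motif GGAATG. The Fgfr3 windows are chr5:33721474-33721723 and chr5:33722056-33722305 on the plus strand, the Met window is chr6:17463707-17463956 on the plus strand, the Pdgfa windows are chr5:138994282-138994531 and chr5:138994945-138995194 on the minus strand and the Axl window is chr7:25788734-25788983 on the minus strand.
Fgfr3, upstream start: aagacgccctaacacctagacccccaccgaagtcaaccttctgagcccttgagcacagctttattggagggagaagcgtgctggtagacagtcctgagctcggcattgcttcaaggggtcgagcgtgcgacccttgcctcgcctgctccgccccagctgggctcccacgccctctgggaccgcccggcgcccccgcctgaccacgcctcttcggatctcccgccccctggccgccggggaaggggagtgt
Fgfr3, downstream start: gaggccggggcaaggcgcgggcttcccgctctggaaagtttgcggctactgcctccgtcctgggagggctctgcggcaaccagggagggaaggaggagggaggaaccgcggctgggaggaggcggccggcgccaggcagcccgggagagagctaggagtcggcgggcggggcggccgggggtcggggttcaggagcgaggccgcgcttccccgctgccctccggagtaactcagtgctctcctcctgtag
Met: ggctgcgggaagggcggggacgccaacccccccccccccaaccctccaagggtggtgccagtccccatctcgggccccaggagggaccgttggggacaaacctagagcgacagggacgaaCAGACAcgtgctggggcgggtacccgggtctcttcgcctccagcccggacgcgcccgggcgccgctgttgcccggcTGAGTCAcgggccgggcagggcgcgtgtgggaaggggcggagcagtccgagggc
Pdgfa, downstream start: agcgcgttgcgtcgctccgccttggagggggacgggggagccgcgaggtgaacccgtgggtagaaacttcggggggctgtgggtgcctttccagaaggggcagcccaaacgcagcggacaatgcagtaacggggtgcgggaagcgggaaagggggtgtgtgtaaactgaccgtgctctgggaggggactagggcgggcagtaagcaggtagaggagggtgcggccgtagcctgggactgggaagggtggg
Pdgfa, upstream start: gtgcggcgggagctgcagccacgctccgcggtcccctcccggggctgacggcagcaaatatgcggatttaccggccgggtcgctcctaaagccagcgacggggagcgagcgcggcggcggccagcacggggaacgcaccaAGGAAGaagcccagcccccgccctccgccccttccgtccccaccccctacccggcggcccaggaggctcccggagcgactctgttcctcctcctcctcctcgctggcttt
Axl: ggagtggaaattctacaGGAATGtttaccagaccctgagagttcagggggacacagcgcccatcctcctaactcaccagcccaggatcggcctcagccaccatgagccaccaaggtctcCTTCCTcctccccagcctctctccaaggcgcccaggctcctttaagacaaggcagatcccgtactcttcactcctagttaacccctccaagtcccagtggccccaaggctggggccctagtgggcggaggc

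The Met window held TGAGTCA 54 bases before the start and CAGACA 130 bases before it. The upstream Pdgfa window held AGGAAG 110 bases before its start. The Axl window held CTTCCT, the reverse complement of AGGAAG, 131 bases and GGAATG 233 bases before the start. Neither Fgfr3 window held any of the motifs. Over the 9 windows of all 7 genes, TGANTCA was in 1, AGGAAG in 3, CAGACA in 1, GGAATG in 1 and the other two in 0. Among 32851 promoter windows of the same length the shares were 6.75% for TGANTCA, 29.5% for AGGAAG, 17.1% for CAGACA, 12.6% for GGAATG, 1.72% for ACCGGAAG and 0.167% for GTCTAGAC. Guanine and cytosine made up 66.8% and 72.8% of the Fgfr3 windows, 74% of the Met window, 66.4% and 72.4% of the Pdgfa windows and 60% of the Axl window, against a median of 52.4% over all promoter windows.

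Partners of these receptors were read from 6 pathway lists. Of 26 FGF ligands and other FGF receptor genes 7 passed the count filter. With knockdown 3 of the 7 were higher and 3 lower under Dox-4OHT, where 60.2% of all genes tested passed, and 2 higher and 3 lower under DMSO, where 61.9% passed. With Ras 2 were higher and 2 lower in TGFbR1kd cells, where 36.1% of all genes passed, and 3 higher and 4 lower in NS cells, where 42.1% passed. DESeq2 called 4 of the 7 for Ras in NS cells, and edgeR without the first NS DMSO library also called 4. Fgfbp1, which encodes a carrier that releases FGFs from the matrix, had 73.7 and 77.9 CPM in TGFbR1kd RasV12, 9.42 and 10.99 CPM in NS RasV12, 62.2 and 62.8 CPM in TGFbR1kd DMSO and 20.9 and 21.3 CPM in NS DMSO libraries. It rose 7.40-fold with knockdown under Dox-4OHT (adjusted p = 2.31e-21) and 2.96-fold under DMSO (adjusted p = 5.86e-17). Fgf1, a ligand that binds all FGF receptors, fell with knockdown by 1.51 ± 0.12 on the log2 scale under Dox-4OHT (adjusted p = 7.79e-11) and by 0.88 ± 0.14 under DMSO (adjusted p = 8.98e-06). Fgf5, known in mouse hair follicles as the signal that ends hair growth, fell with Ras in NS cells by 1.17 ± 0.10 (adjusted p = 5.55e-10). Its Ras response in TGFbR1kd cells was -0.36 ± 0.09 (adjusted p = 0.0039), a call lost with DESeq2 (adjusted p = 0.0807). In TGFbR1kd cells Fgf13, an intracellular FGF homologue, fell with Ras by 0.86 ± 0.10 (adjusted p = 8.89e-08). Fgfrl1, a receptor without a kinase domain, rose with Ras in these cells by 0.74 ± 0.10 (adjusted p = 2.7e-06). Both went the same way in NS cells, Fgf13 at -0.55 ± 0.11 (adjusted p = 0.000123) and Fgfrl1 at 0.22 ± 0.09 (adjusted p = 0.0462). The call of Fgfrl1 in NS cells was lost with DESeq2 (adjusted p = 0.276). Fgf2, Fgf7, Fgf10 and Fgfr4 had at most 1 count in any library.

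Partners of Met were listed as genes of ligand activation and related receptors. Of 8 listed genes 5 passed the count filter, and all 5 were higher in TGFbR1kd than in NS libraries under Dox-4OHT, where 30.5% of all genes tested were higher, while under DMSO 2 were higher and 1 lower, against 30.9% and 31% of all genes. With Ras 3 of 5 were higher and 0 lower in TGFbR1kd cells, against 19.5% and 16.6% of all genes, and 0 were higher and 5 lower in NS cells, against 20.8% and 21.3%. All 5 had a positive interaction that passed, against 20.2% of all genes tested. Their median was 1.47 on the log2 scale, against 0.02 for all genes tested. One of the 5, Mst1r, was scarce, with between 4 and 25 counts a library. In the other lists the interaction passed for 5 of 7 FGF genes (4 higher, 1 lower) and 5 of 11 shared adaptors. It passed for 2 of 9 PDGF and VEGF genes, 1 of 6 insulin and IGF partners and 1 of 4 TAM partners. Of all genes tested 38.2% passed. St14 encodes matriptase, a membrane protease that activates hepatocyte growth factor, and Spint1 and Spint2 encode inhibitors of such proteases. St14 had 307 and 306 CPM in TGFbR1kd RasV12, 49.0 and 56.5 CPM in NS RasV12, 262 and 264 CPM in TGFbR1kd DMSO and 72.9 and 76.0 CPM in NS DMSO libraries, a 5.80-fold rise with knockdown under Dox-4OHT (adjusted p = 1.83e-24) and 3.53-fold under DMSO (adjusted p = 4.79e-22). Spint1 rose with knockdown by 2.37 ± 0.10 on the log2 scale under Dox-4OHT (adjusted p = 4.02e-17) and by 0.90 ± 0.09 under DMSO (adjusted p = 1.19e-09). Its Ras response was 0.35 ± 0.08 in TGFbR1kd cells (adjusted p = 0.000736) and -1.12 ± 0.12 in NS cells (adjusted p = 1.15e-08). Spint2 rose with Ras in TGFbR1kd cells by 0.36 ± 0.04 (adjusted p = 3.18e-08). The list holds both the activating protease and its inhibitors, and Hgf, the ligand gene itself, had at most 0.5 counts in any library.

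**Figure D5:**
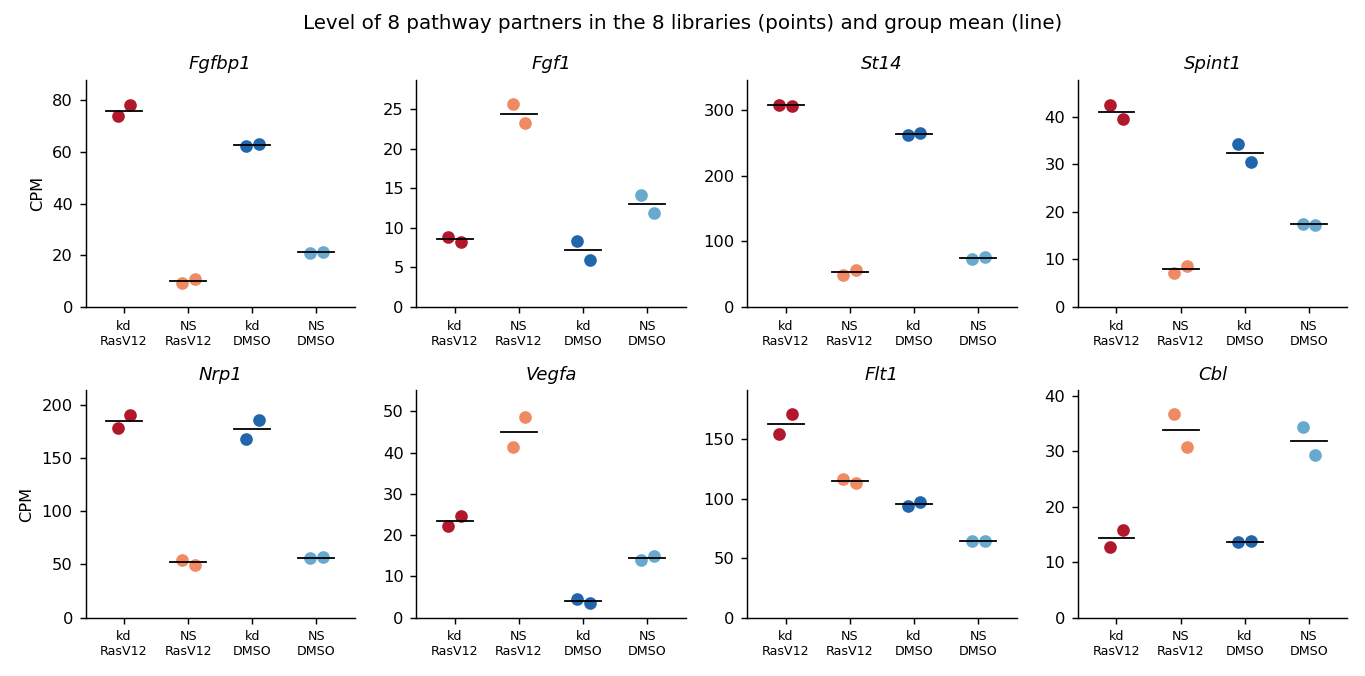
Level in CPM (vertical axes from 0) of 8 pathway partners in the 8 libraries, shown as points with a line at the group mean. Fgfbp1, St14, Spint1 and Nrp1 are higher and Cbl, Fgf1 and Vegfa lower in knockdown than in NS libraries under each treatment.

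Ligands and receptors of the PDGF and VEGF families were listed as 14 genes, of which 13 were found and 9 passed the count filter. With knockdown 3 of the 9 were higher and 5 lower under each treatment, against 60.2% of all genes tested that passed under Dox-4OHT and 61.9% under DMSO. With Ras 3 were higher and 0 lower in TGFbR1kd cells (36.1% of all genes passed), and 5 higher and 2 lower in NS cells (42.1% of all genes passed). Nrp1, a co-receptor for VEGF, had 178 and 190 CPM in TGFbR1kd RasV12, 54.3 and 49.9 CPM in NS RasV12, 168 and 186 CPM in TGFbR1kd DMSO and 55.9 and 57.1 CPM in NS DMSO libraries. It rose 3.54-fold with knockdown under Dox-4OHT (adjusted p = 5.29e-19) and 3.13-fold under DMSO (adjusted p = 1.93e-18). Vegfa, the main angiogenic ligand, had 22.2 and 24.6 CPM in TGFbR1kd RasV12, 41.5 and 48.7 CPM in NS RasV12, 4.43 and 3.58 CPM in TGFbR1kd DMSO and 14.0 and 15.1 CPM in NS DMSO libraries. Like Vegfc it stood higher in the RasV12 libraries of both kinds of cell, and the knockdown libraries lay below the NS libraries under each treatment. Flt1, a VEGF receptor, responded to Ras with a log2 rise of 0.77 ± 0.05 in TGFbR1kd cells (adjusted p = 9.33e-13) and of 0.83 ± 0.05 in NS cells (adjusted p = 4.18e-13). Pdgfra, the PDGF receptor that binds the A chain, had between 6 and 20 counts a library, and Pdgfrb at most 1.

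In the TAM family all 4 listed partners of Axl passed the count filter. With knockdown 1 was higher and 1 lower under Dox-4OHT (60.2% of all genes passed), and 1 higher and 2 lower under DMSO (61.9%). With Ras 1 was higher and 0 lower in TGFbR1kd cells (36.1%), and 1 higher and 1 lower in NS cells (42.1%). Gas6, the ligand of Axl, had 271 and 251 CPM in TGFbR1kd RasV12, 334 and 348 CPM in NS RasV12, 201 and 176 CPM in TGFbR1kd DMSO and 279 and 284 CPM in NS DMSO libraries. With knockdown Gas6 fell by 0.38 ± 0.05 on the log2 scale under Dox-4OHT (adjusted p = 3.32e-05) and by 0.58 ± 0.06 under DMSO (adjusted p = 7.84e-07), while Axl was higher under both. Tyro3, another TAM receptor, fell with Ras in NS cells by 0.56 ± 0.04 (adjusted p = 7.3e-11) and with knockdown under DMSO by 0.51 ± 0.04 (adjusted p = 1.14e-10).

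Insulin and IGF partners include ligands, docking adaptors and Igf2r. Of 10 listed genes 6 passed the count filter. With knockdown 3 were higher and 1 lower under Dox-4OHT (60.2% of all genes passed), and 2 higher and 2 lower under DMSO (61.9%). With Ras 0 were higher and 1 lower in TGFbR1kd cells (36.1%), and 0 higher and 2 lower in NS cells (42.1%). The count in NS cells was 1 without the first NS RasV12 library, and that in TGFbR1kd cells 0 without the first TGFbR1kd DMSO library. Igf2r, which clears IGF2 from the cell surface, rose with knockdown by 0.81 ± 0.11 on the log2 scale under Dox-4OHT (adjusted p = 0.00275) and by 0.79 ± 0.11 under DMSO (adjusted p = 0.00309). Pik3r1, a regulatory subunit of phosphoinositide 3-kinase, fell with knockdown by 0.37 ± 0.06 under Dox-4OHT (adjusted p = 3.78e-06) and by 0.38 ± 0.06 under DMSO (adjusted p = 2.62e-06). Irs2, an adaptor of the insulin and IGF1 receptors, fell with Ras in NS cells by 0.22 ± 0.07 (adjusted p = 0.00912), a call lost with DESeq2 (adjusted p = 0.103) and without the first NS RasV12 library (adjusted p = 0.0754). Igf1 had at most 0.5 counts in any library.

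All 11 adaptors that several of these receptors share passed the count filter. With knockdown 6 were higher and 2 lower under Dox-4OHT (60.2% of all genes passed), and 4 higher and 6 lower under DMSO (61.9%). With Ras 1 was higher and 0 lower in TGFbR1kd cells (36.1%), and 0 higher and 4 lower in NS cells (42.1%). DESeq2 called 6 under DMSO and 2 for Ras in NS cells, and the same numbers were called by edgeR without the second and without the first NS DMSO library. The count for Ras in TGFbR1kd cells was 2 without the first TGFbR1kd RasV12 library. Cbl, a ubiquitin ligase that sends activated receptors to degradation, fell with knockdown by 1.25 ± 0.11 on the log2 scale under Dox-4OHT (adjusted p = 1.53e-08) and by 1.22 ± 0.11 under DMSO (adjusted p = 2.14e-08). Sos1, the exchange factor that loads Ras with GTP, rose with knockdown under Dox-4OHT by 0.38 ± 0.05 (adjusted p = 1.47e-07) and under DMSO by 0.42 ± 0.05 (adjusted p = 2.58e-08). Gab2, a docking adaptor, fell with knockdown under DMSO by 1.03 ± 0.13 (adjusted p = 1.12e-07) and rose with Ras in TGFbR1kd cells by 0.89 ± 0.13 (adjusted p = 6.22e-06). In NS cells Cblb, a relative of Cbl, fell with Ras by 0.49 ± 0.05 (adjusted p = 2.33e-08) and Frs2, the FGF receptor docking protein, by 0.19 ± 0.05 (adjusted p = 0.00167).

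Likeness of pattern was measured for each of the 10 genes against 9824 genes with a mean of at least 5 CPM. Genes whose symbols matched patterns for predicted genes, small RNAs and some other entries were left out. Likeness was taken as the distance between the log2 means of the 4 groups after centring. With 4 points such likeness is a loose description. The genes nearest to Pdgfb were Duoxa1, at 0.00681, and Trappc12, at 0.0478, where Pdgfb itself spans 0.86 between its highest and lowest group. Ciart was the nearest gene to both Fgfr1, at 0.076, and Vegfc, at 0.0656, and Fgfr1 was the second nearest to Vegfc, at 0.135. The genes nearest to Fgfr3 were Dusp22, at 0.12, and Zhx1, at 0.122. The nearest genes were Sh3rf2 and Nacc2 for Fgfr2, Mob3a and Kank2 for Axl, Pgghg and Zxdc for Igf1r, Gabarapl2 and Tprn for Insr and Ppp2r2a and Zfp608 for Pdgfa.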

How the data were processed

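ASZ001 RNA was made into TruSeq libraries, per the labels' protocols. The authors deposited 1 table of expected counts (estimated counts per gene), which sum to different totals per library and are all (100%) multiples of 0.5. TopHat, HOMER, DESeq2 and the mouse build mm9 are named in the submitters' processing notes. Versions and the strand setting are not stated in these notes, so overlapping genes may share reads. Of duplicate symbols the entry with the higher total was used, which left out 2 of 24909 entries. The planned test assumed whole counts, and the estimated counts were rounded for it.

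Tests used edgeR 4.0.16 in R 4.3.3. After filterByExpr 12538 genes with 99.96% of counts were tested, with TMM scaling, in a single fit of 4 group means to the 8 libraries (residual degrees of freedom 4). The robust quasi-likelihood F test was applied to 4 comparisons of groups and the interaction, two-sided, with p-values adjusted by Benjamini-Hochberg over all these genes and a threshold of 0.05. SEs were derived from the test, as the absolute log2 change divided by the square root of the F statistic. The biological coefficient of variation was 3.37%. Replicate libraries correlated at 0.9949 to 0.9959 in log CPM and differed beyond sampling noise. Alternatives were RLE size factors, DESeq2 1.42.0, no filter on low counts, only the 4 libraries compared, a replicate block, removal of Rn45s and leaving out each library.

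The 10 genes and the gene lists were chosen with earlier results of these data known. From each list the text names up to 2 genes a comparison. These had the largest log2 changes, up or down, among genes that passed the threshold and averaged 5 CPM or more. Other genes were chosen after their values were seen. The genes nearest to Met in pattern are not reported here.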

Additional observations from a re-analysis of the deposited data

Results flagged for a closer look

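The Ras response differed between knockdown and NS cells, by the interaction test of edgeR, for 7 of the 10 genes. On the log2 scale the response in TGFbR1kd cells minus that in NS cells was 0.66 for Pdgfb, 0.39 for Fgfr3 and 0.37 for Fgfr2. It was 0.29 for Insr, 0.26 for Igf1r, 0.21 for Fgfr1 and 0.20 for Axl. With Ras, Pdgfb rose in TGFbR1kd cells and fell in NS cells, Fgfr1 showed a larger rise in TGFbR1kd cells and Fgfr2 a smaller fall. Over all genes tested 38.2% passed the same test, and the calls for Fgfr1, Igf1r, Insr and Axl were lost under at least 1 alternative.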

How the results depend on the processing

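Across 8 fits that left out a library and up to 6 other alternatives, no change of the 10 genes that had passed the test turned its direction. Of 50 changes 38 passed, 28 of them under every alternative and 10 of them not under at least 1. Of the 12 that did not pass, 9 did under at least 1 alternative. With DESeq2 the number of all genes called was 3265 for Ras in NS cells, against 5281 with edgeR, 2628 for Ras in TGFbR1kd cells, against 4531, and 2828 for the interaction, against 4791, and the cause was not tested. The number of the 10 genes called lay between 6 and 9 for Ras in NS cells without 1 library, 5 and 9 for Ras in TGFbR1kd cells, 8 and 10 for knockdown under DMSO, 7 and 9 for knockdown under Dox-4OHT and 5 and 8 for the interaction. In the same order the counts over all genes lay between 3888 and 5329, 3306 and 4670, 6650 and 7904, 6585 and 7608 and 3918 and 4533 of 12538. Same-numbered libraries did not deviate together (correlations from -0.0227 to 0.0327). Such correlations cannot show whether these libraries were prepared as pairs, since pairs with little shared deviation would give the same values. With the replicate block 7, 8, 9, 8 and 6 of the 10 genes were called in the same order, and 5319, 4559, 7777, 7554 and 4814 of all genes. Under it the interaction of Insr was 0.29 (adjusted p = 0.0582) and the Ras response of Fgfr3 in TGFbR1kd cells 0.14 (adjusted p = 0.0345). Depth limits Vegfc most, at 44 to 98 counts a library.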

Other observations

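Some listed partners were scarce but lay far apart between the groups, and they were chosen after their values were seen. Pros1, which encodes protein S, a ligand of the TAM receptors, had 25.5 and 15 counts in TGFbR1kd RasV12, 1 and 1 counts in NS RasV12, 21 and 14.5 counts in TGFbR1kd DMSO and 1 and 1.5 counts in NS DMSO libraries. Fgf9, an FGF ligand, had 0 and 0 counts in TGFbR1kd RasV12, 25 and 22.5 counts in NS RasV12, 1 and 0 counts in TGFbR1kd DMSO and 10 and 16.5 counts in NS DMSO libraries. Flt4, the receptor of VEGF-C, had 7 and 12 counts in TGFbR1kd RasV12, 38.5 and 65.5 counts in NS RasV12, 3.5 and 5.5 counts in TGFbR1kd DMSO and 17 and 23.5 counts in NS DMSO libraries. Mst1r, a receptor related to Met, had 25 and 19.5 counts in TGFbR1kd RasV12, 4 and 5 counts in NS RasV12, 16.5 and 17.5 counts in TGFbR1kd DMSO and 20 and 16.5 counts in NS DMSO libraries. Pros1 was high in both knockdown groups, Fgf9 and Flt4 were high in both NS groups, and Mst1r was low in NS RasV12 libraries alone.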
